A study of Brachypodium distachyon with 89 samples.

Results

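Bd21 and Bd21-3 are inbred accessions, here called ecotypes, of Brachypodium distachyon, a small grass used as a model for cereals. The study treats Bd21 as the ecotype sensitive to submergence and Bd21-3 as the tolerant one. The comparison described here set submerged Bd21 against submerged Bd21-3 at midday, ZT8 (hours after dawn), with 3 libraries of each ecotype and all 24467 genes of the table, of which 24109 reached 1 CPM in at least 3 libraries and were tested. These 6 libraries belong to a series of 89 RNA-seq libraries that cover both ecotypes in submergence (S), in low light in a tank without water (LL) and in normal growth (NG), from ZT0 through ZT8, ZT16 and ZT20 to ZT24. Each library held RNA from the shoots of 5 pooled plants, and the submerged plants had gone under water before dusk of the previous day. Each ecotype is a single inbred line, and plants collected at a given time had shared a tank, so the p-values measure the spread between pools and not between lines or tanks.

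Water slows the diffusion of oxygen, and plant cells short of oxygen turn to glycolysis and fermentation, with pyruvate decarboxylase and alcohol dehydrogenase as the classic induced enzymes. Turbid or deep water also removes light, so that leaves lose photosynthetic transcripts and draw on stored carbohydrate. Jasmonate, a hormone made from membrane lipids, is held in check by JAZ proteins, whose genes it induces, and immune receptors of the NB-ARC class are among the gene families that vary most in presence and sequence between accessions of a plant species.

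The deposited values are CPM, reads of a gene relative to the effective size of its library. The Bd21 submerged libraries held 4453888 to 8796657 reads and the Bd21-3 ones 7742208 to 9444214. A gene was called when its log2 difference of Bd21 over Bd21-3 was at least 1.5 in size, its adjusted p was under 5e-06 (limma, Benjamini-Hochberg) and its mean was at least 15 CPM in a group compared. The labels were checked with 120 genes that mark Bd21 and 30 that mark Bd21-3 at the other times, where the median was at least 5 CPM in one ecotype and under 3% of that in the other. The Bd21-3 submerged libraries held 0.499 to 0.635% of the summed level of the Bd21 marks. Of the Bd21-3 marks, Bd21 replicate 3 held 12 of 30 at 10% or more of their level, or 11.8% of the summed level, against 1.19 to 1.37% in the other Bd21 submerged libraries. Without that library 170 genes were higher in Bd21 (159 of them shared) and 57 lower (45 shared). Similar levels recurred in Bd21 libraries at other times, such as 18.4% in submergence at ZT20 (replicate 2) and 24.9% in NG at ZT24 (replicate 3). Over the 42 Bd21 libraries other than submerged replicate 3 and NG replicate 1 at ZT8, the range was 0.528 to 24.9%. Among the libraries used for comparison, Bd21-3 replicate 3 in NG held 110 of the 120 Bd21 marks (20% of the summed level) and Bd21 replicate 1 in NG held 16 of the 30 Bd21-3 marks (19.2%). Bd21 replicate 1 in LL stood apart in another way, with 32875 CPM in photosystem, antenna and electron transport genes against 96852 and 72620 in the other Bd21 LL libraries. The part these ZT8 libraries play in the results was not tested beyond leaving them out, and no single library of another time was left out. The treatment was clear in both ecotypes: the alcohol dehydrogenase gene ADH (Bradi4g22630) had 1825, 2247 and 2411 CPM in Bd21, against 3176, 3367 and 3863 CPM in Bd21-3 in submergence, and averaged 27.3 ± 13.1 CPM in Bd21 and 29.7 ± 2.02 CPM in Bd21-3 in LL.

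In submergence at ZT8, 179 genes were higher in Bd21 (0.742% of the 24109 tested) and 47 were lower (0.195%). The median size of the difference was 3.14 on the log2 scale for the higher genes and 2.23 for the lower ones. The higher genes were mostly of modest level, with Bd21 means between 15.0 and 729 CPM and a median of 31.7, whereas the lower genes reached a Bd21-3 mean of 5400 CPM with a median of 39.9. An Arabidopsis match was listed for 125 of the 179 higher and 30 of the 47 lower genes. At an adjusted p under 0.05 and no limit on size, 2928 genes were higher (12.1%) and 2081 lower (8.63%), and the median over all tested genes was 0.05. In bulk shoots, fewer cells of a type and less RNA per cell cannot be told apart.

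**Figure D1:**
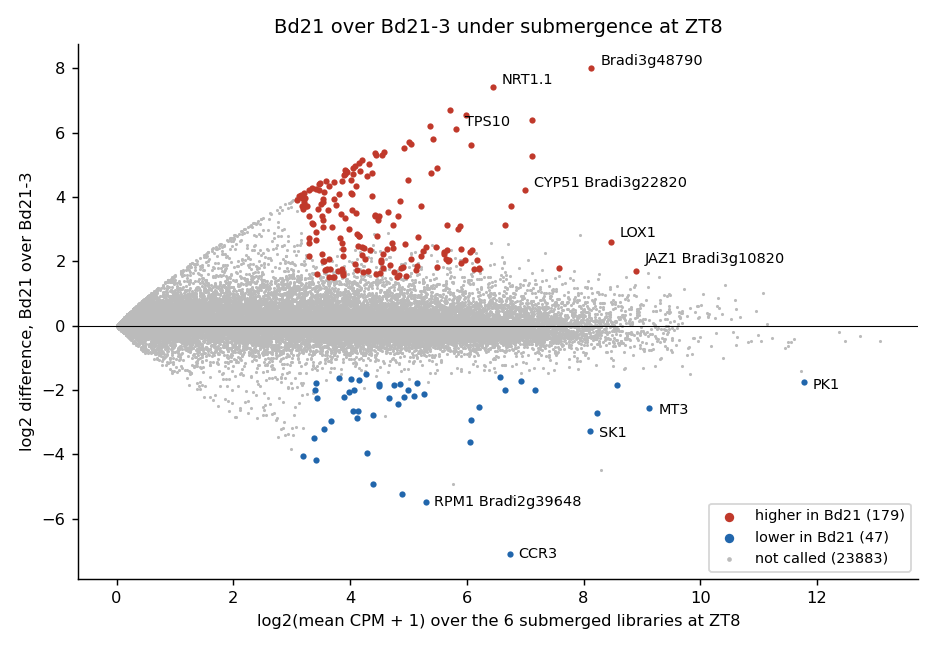
Mean level of each tested gene over the 6 submerged libraries at ZT8 (x axis, log2 of mean CPM + 1) against its log2 difference, Bd21 over Bd21-3 (y axis). Red points are the 179 genes higher in Bd21, blue points the 47 lower genes and grey points the genes not called. The red points run up to 8.0 for the LRR kinase gene Bradi3g48790, and the blue points down to -7.11 for CCR3.

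Part of the difference was also present in plants that were not submerged. In LL at ZT8, 130 genes were higher in Bd21 (0.539%) and 39 lower (0.162%), and in NG 89 were higher (0.369%) and 22 lower (0.0913%). Of the 179 genes higher in submergence, 86 (48.0% of them, 66.2% of the LL genes) were also called in LL, 66 (36.9%, and 74.2% of the NG genes) in NG, and 91 in neither. Of the 47 lower genes, 21 (44.7%, and 53.8% of the LL genes) were called in LL, 10 in NG and 25 in neither. With the pair of NG libraries that held marks of the other ecotype left out, NG had 104 higher and 24 lower genes, and 90 and 26 genes of the submergence lists were in neither control.

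Several genes with large differences in favour of Bd21 encode receptors or kinases. Bradi3g48790, a leucine-rich repeat (LRR) receptor-like kinase, a family of membrane proteins that sense peptides and other ligands, had 511, 526 and 640.3 CPM in Bd21, against 1.91, 1.54 and 0.39 CPM in Bd21-3 (log2 difference 8.00 ± 0.59 SE, limma adjusted p = 4.9e-18). It was also far higher in Bd21 in LL (295 ± 60.6 CPM in Bd21 and 0.93 ± 0.48 CPM in Bd21-3). A second LRR kinase close to it on chromosome 3, Bradi3g48760, had 112, 108 and 89.4 CPM in Bd21, against 0, 0 and 0 CPM in Bd21-3, which is at least 304-fold higher against a floor of 3 reads per library. The protein kinase gene NAK (Bradi4g28188) had 133, 122 and 117 CPM in Bd21, against 0.42, 0.21 and 0.39 CPM in Bd21-3 (log2 difference 6.54 ± 0.44 SE, limma adjusted p = 9.4e-20). CRK41 (Bradi4g09872), a cysteine-rich receptor-like kinase, had 100.3, 79.0 and 63.8 CPM in Bd21, against 0.21, 0.10 and 0 CPM in Bd21-3 (log2 difference 6.19 ± 0.45 SE, limma adjusted p = 3.1e-18). In all 4 genes every Bd21 library was above every Bd21-3 library, as in all 179 genes called higher, so this adds nothing to the calls. All 4 were called at each of the 5 times in submergence.

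Of 260 tested NB-ARC genes, whose proteins recognise pathogen effectors inside the cell, 16 were higher in Bd21 and 2 lower (6.92% called, against 0.937% of all tested genes), while the median of the list was -0.07 against 0.05 over all tested genes. At an adjusted p under 0.05 and no limit on size, 54 were higher and 53 lower, beside 12.1% and 8.63% of all tested genes. In LL 20 were higher and 2 lower at the full limits, and 13 of the 16 were called there too. Members with the RPM1 match in Arabidopsis were on both sides. Bradi4g09587 had 33.2, 28.7 and 22.1 CPM in Bd21, against 0, 0 and 0 CPM in Bd21-3, at least 82.6-fold higher against the same floor. Bradi2g39537 had 40.6, 22.8 and 19.9 CPM in Bd21, against 0, 0.10 and 0.13 CPM in Bd21-3 (log2 difference 4.67 ± 0.33 SE, limma adjusted p = 5.3e-19), its neighbour Bradi2g39547 17.6, 16.0 and 13.9 CPM in Bd21, against 0.85, 0.21 and 0.13 CPM in Bd21-3, and Bradi2g39247 had 60.3, 50.8 and 48.1 CPM in Bd21, against 3.07, 3.19 and 1.83 CPM in Bd21-3. In the opposite direction, Bradi2g39648, which lies in the same part of chromosome 2, had 1.05, 0.52 and 0.46 CPM in Bd21, against 103, 63.7 and 61.1 CPM in Bd21-3 (log2 difference -5.49 ± 0.28 SE, limma adjusted p = 3.2e-25). In LL that gene averaged 2.50 ± 2.45 CPM in Bd21 and 124 ± 6.13 CPM in Bd21-3. The submerged Bd21 and Bd21-3 libraries did not overlap for any of these genes, nor for any of the 179 higher and 47 lower genes called on the same libraries.

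The nitrate transporter and sensor gene NRT1.1 (Bradi3g33040) had 179.7, 144 and 194 CPM in Bd21, against 0, 0 and 0 CPM in Bd21-3. It was at least 508-fold higher in Bd21 against the floor of 3 reads per library, and its fitted log2 difference was 7.43 ± 0.46 (SE, limma adjusted p = 1.2e-21). In LL it averaged 32.0 ± 21.98 CPM in Bd21 and 1.07 ± 0.56 CPM in Bd21-3, so that Bd21 had less of it by mean than in submergence and Bd21-3 slightly more, and the 3 libraries of Bd21 there ran between 8.64 and 52.3 CPM. The log2 ecotype difference of NRT1.1 in S minus that in LL was not called (3.72, limma adjusted p = 3.6e-05). Of the 33 nitrogen uptake and assimilation genes tested, NRT1.1 and the transporter gene Bradi3g47010 of the major facilitator superfamily were called, both higher (6.06%, against 0.937% of all tested genes), and the list median was 0.26. Bradi3g47010 had 28.6, 22.9 and 28.9 CPM in Bd21, against 1.16, 1.64 and 6.14 CPM in Bd21-3 (log2 difference 3.01 ± 0.46 SE, limma adjusted p = 3.5e-07), with means of 39.2 ± 28.9 CPM in Bd21 and 53.6 ± 3.75 CPM in Bd21-3 in LL, and kept its call in 2 of 6 fits without 1 library and not by edgeR (adjusted p = 6.4e-06). Its ecotype difference in S minus that in LL was not called (3.75, limma adjusted p = 3.1e-05). Not called were the nitrate reductase gene GNR1 (Bradi3g37940), with 134, 112 and 121 CPM in Bd21, against 25.9, 46.1 and 61.1 CPM in Bd21-3 (log2 difference 1.52), and the NADH-dependent glutamate synthase gene GLT1 (Bradi2g46670), with 1636, 1819.9 and 2084 CPM in Bd21, against 5312, 5103 and 4398 CPM in Bd21-3 (log2 difference -1.42).

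Reads of both ecotypes had been aligned to the Bd21 genome. No gene was without a read in all Bd21-3 libraries at ZT8 over S, LL and NG while at 5 CPM or more in submerged Bd21, nor the reverse. Without Bd21-3 replicate 3 in NG, the library that held most Bd21 marks, 12 genes had no read in Bd21-3, and without Bd21 replicate 1 in NG there was still no gene of the reverse kind. Over S and LL alone, 21 genes had no read in Bd21-3 and at least 5 CPM in Bd21, 5 of them called, and no gene the reverse. Over the submerged libraries alone the counts were 45 and 4. The 5 called ones over S and LL were Bradi3g17532, described as an RNI-like protein with a mean of 18.4 CPM in Bd21, and Bradi4g21717, Bradi2g40476, Bradi4g10687 and Bradi4g14743, which have no description, with 15.5 to 17.6 CPM. Bradi2g05102, of a family responsive to dehydration, was not among the 21, since Bd21-3 had reads of it in LL, but had 44.98, 36.3 and 41.3 CPM in Bd21, against 0, 0 and 0 CPM in Bd21-3 in submergence, at least 120.5-fold higher. Absence of a gene from Bd21-3, reads too different to align and a gene that is silent cannot be told apart in these files.

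Other genes higher in Bd21 in both treatments have household roles. Bradi1g06861, described as an elongation factor Tu family protein, had 359, 265 and 196 CPM in Bd21, against 2.86, 1.95 and 1.83 CPM in Bd21-3 (log2 difference 6.39 ± 0.50 SE, limma adjusted p = 4.2e-17). PTAC14 (Bradi3g44496), part of the plastid transcription machinery, had 20.4, 22.3 and 25.7 CPM in Bd21, against 0.32, 0.10 and 0.13 CPM in Bd21-3. TSBtype2 (Bradi1g35600), the beta subunit type of tryptophan synthase, had 104, 96.8 and 68.3 CPM in Bd21, against 6.14, 10.4 and 11.8 CPM in Bd21-3, and in LL 65.8 ± 17.3 CPM in Bd21 and 15.2 ± 0.91 CPM in Bd21-3. The ribosomal protein L34e family gene Bradi3g16620 had 68.3, 69.1 and 58.9 CPM in Bd21, against 10.8, 13.5 and 9.40 CPM in Bd21-3. It was the only called member among 290 ribosomal protein genes (0.345%, against 0.937% of all tested genes), whose median was 0.18. In each of these genes the lowest Bd21 library was above the highest Bd21-3 library, as in every gene called higher.

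**Figure D2:**
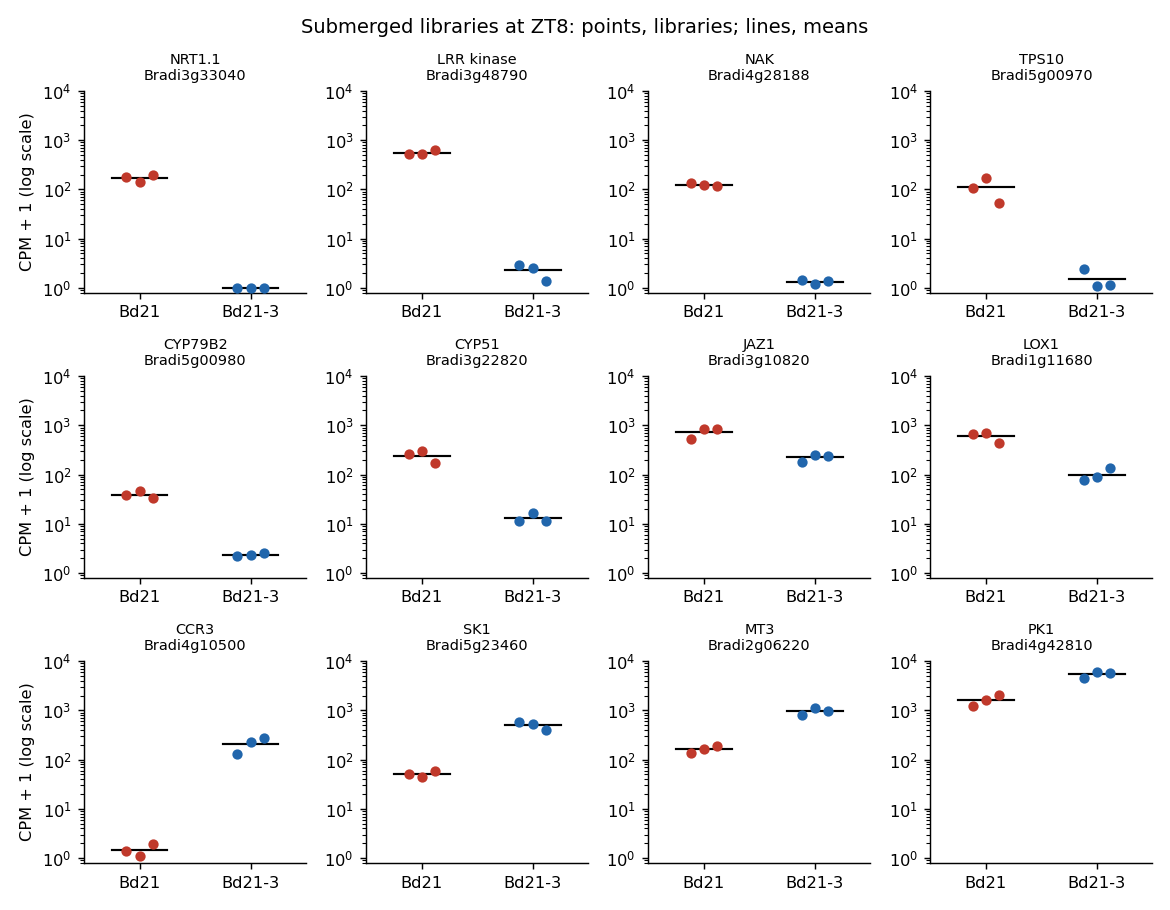
CPM + 1 (log axis) of 12 genes in the submerged libraries at ZT8, with Bd21 on the left and Bd21-3 on the right of each panel. Points are libraries and lines are means of 3. NRT1.1 sits at 0 CPM in each Bd21-3 library and CCR3 under 1 CPM in each Bd21 library, while JAZ1 and PK1 are well expressed in both ecotypes.

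By the chromosome and order that the gene identifiers carry, called genes were found on all 5 chromosomes, with 1.53% of the tested genes of chromosome 4 called and 0.657 to 0.979% on the other four. Among the higher genes 31 stood in 14 runs of at least 2 neighbours in the order of tested genes, and among the lower genes 12 stood in 6 runs. A stretch of chromosome 3 held genes of sterol and triterpene synthesis. CAS1 (Bradi3g22802), described as cycloartenol synthase, the entry enzyme of plant sterol synthesis, had 54.6, 84.7 and 41.2 CPM in Bd21, against 1.38, 1.75 and 1.57 CPM in Bd21-3 (log2 difference 4.52 ± 0.42 SE, limma adjusted p = 7.4e-14). The next tested gene, CYP51 (Bradi3g22820), a sterol demethylase of the cytochrome P450 family, had 255, 299 and 172 CPM in Bd21, against 10.4, 15.8 and 10.2 CPM in Bd21-3 (log2 difference 4.20 ± 0.33 SE, limma adjusted p = 4.1e-17). Nearby CYP51 copies, Bradi3g22840 with 70.6, 96.5 and 55.4 CPM in Bd21, against 12.5, 12.8 and 11.9 CPM in Bd21-3 and Bradi3g22850 with 59.5, 62.8 and 32.8 CPM in Bd21, against 7.09, 11.0 and 5.88 CPM in Bd21-3, were higher as well. All 4 genes were also higher in Bd21 by mean in LL, where CYP51 Bradi3g22820 averaged 142 ± 46.2 CPM in Bd21 and 16.1 ± 1.33 CPM in Bd21-3. Copies this alike can share reads, so the split of reads between them is uncertain. Outside that stretch, the sterol oxidase gene SMO1 (Bradi4g23800) had 42.9, 20.7 and 9.59 CPM in Bd21, against 1.91, 2.47 and 3.79 CPM in Bd21-3 (log2 difference 2.57 ± 0.28 SE, limma adjusted p = 3.1e-11) and nearly equal LL means (113 ± 25.7 CPM in Bd21 and 109.7 ± 10.8 CPM in Bd21-3).

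Some genes differed between the ecotypes in submergence and not, or less, in LL. The test of that difference, the log2 ecotype difference in S minus that in LL, called 48 genes as positive (0.199%) and 12 as negative (0.0498%). It shares the submerged libraries with the main comparison, and 21 of the 179 higher and 5 of the 47 lower genes were among them. The positive count was 28 without Bd21 replicate 1 in LL, 27 of them shared, and 31 without Bd21 replicate 2 in S. The terpene synthase gene TPS10 (Bradi5g00970), of the enzyme family that makes volatile and defensive terpenes, had 108, 169 and 52.2 CPM in Bd21, against 1.38, 0.10 and 0.13 CPM in Bd21-3 (log2 difference 6.12 ± 0.43 SE, limma adjusted p = 6.8e-19). In LL the averages were 3.83 ± 0.79 CPM in Bd21 and 1.87 ± 0.13 CPM in Bd21-3, and the difference of differences was 5.38 (± 0.61 SE, limma adjusted p = 1.7e-09). Beside it on chromosome 5, CYP79B2 (Bradi5g00980), a P450 whose Arabidopsis match turns tryptophan into an oxime for defence compounds, had 37.0, 44.6 and 32.3 CPM in Bd21, against 1.16, 1.34 and 1.57 CPM in Bd21-3 (log2 difference 4.04 ± 0.22 SE, limma adjusted p = 1.2e-23). Its LL means lay the other way round, 20.3 ± 1.76 CPM in Bd21 and 38.9 ± 2.68 CPM in Bd21-3, giving a difference of 4.95 (± 0.32 SE, limma adjusted p = 3.8e-19). Both genes kept their calls in all 12 fits that left out 1 library. Another terpene synthase gene, TPS14 (Bradi3g02130), had 19.6, 34.8 and 8.56 CPM in Bd21, against 0.32, 0.21 and 0.52 CPM in Bd21-3, with LL means of 1.49 ± 0.33 CPM in Bd21 and 1.72 ± 0.74 CPM in Bd21-3 and a difference of 3.94 (± 0.61 SE, limma adjusted p = 3.3e-06), but this last call was kept in 1 of 12 such fits. A terpene synthase called in submergence, TPS02 (Bradi3g14710), had 12.8, 27.1 and 14.4 CPM in Bd21, against 2.65, 2.77 and 3.27 CPM in Bd21-3 (log2 difference 2.22 ± 0.37 SE, limma adjusted p = 3e-06) and lost its call in all 6 fits without 1 submerged library.

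A run of 4 neighbours on chromosome 3 was higher in Bd21 in submergence, and 2 of the 4 had a called S minus LL difference. Bradi3g35700, a RING finger gene of the kind that directs proteins to degradation, had 99.4, 191 and 103 CPM in Bd21, against 0.74, 1.54 and 2.87 CPM in Bd21-3 (log2 difference 5.61 ± 0.54 SE, limma adjusted p = 2.9e-13). The next gene, Bradi3g35680, described only by a domain of dipeptidyl peptidase-like proteins (DPP6), had 61.4, 135 and 63.2 CPM in Bd21, against 1.69, 1.64 and 1.96 CPM in Bd21-3. Bradi3g35670 with the same domain had 19.6, 48.1 and 20.9 CPM in Bd21, against 1.48, 1.95 and 0.65 CPM in Bd21-3, and the RING finger gene Bradi3g35660 had 21.6, 49.3 and 21.1 CPM in Bd21, against 0.42, 1.75 and 3.40 CPM in Bd21-3. Bd21 replicate 2 was the highest library for each, and Bradi3g35660 kept its call in 3 of 6 fits without 1 library. None of the 4 was called in LL, where Bradi3g35700 averaged 50.9 ± 30.5 CPM in Bd21 and 37.9 ± 4.42 CPM in Bd21-3, and for Bradi3g35700 and Bradi3g35680 the S minus LL differences were 5.42 (± 0.77 SE, limma adjusted p = 4.9e-07) and 4.76 (± 0.65 SE, limma adjusted p = 2.5e-07), kept in 9 and 10 of 12 fits without 1 library. Those of Bradi3g35670 and Bradi3g35660 were 3.14 (± 0.59 SE, limma adjusted p = 0.00012) and 2.94 (± 0.76 SE, limma adjusted p = 0.0062), and were not called. Similar neighbours can share reads, so the individual values are uncertain.

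Further genes with a called S minus LL difference had roles in walls, transport, redox and storage. RLI2 (Bradi3g10390), an ABC protein linked to ribosome recycling, had 35.1, 76.5 and 129.6 CPM in Bd21, against 2.12, 1.54 and 1.44 CPM in Bd21-3, with 3.84 (± 0.60 SE, limma adjusted p = 4.4e-06) for the difference from LL, a call kept in 1 of 12 fits without 1 library. The uclacyanin gene UCC1 (Bradi4g05250), a copper protein of the cell surface, had 13.0, 21.8 and 23.3 CPM in Bd21, against 0, 0.10 and 0 CPM in Bd21-3, and LL means of 0.72 ± 0.74 CPM in Bd21 and 0.068 ± 0.12 CPM in Bd21-3. The sodium/calcium exchanger gene Bradi3g09350 had 50.2, 38.7 and 29.5 CPM in Bd21, against 3.28, 2.26 and 3.66 CPM in Bd21-3, with LL means of 61.3 ± 3.61 CPM in Bd21 and 40.2 ± 5.96 CPM in Bd21-3, a called difference of 2.69 (± 0.20 SE, limma adjusted p = 4.7e-16). Among sugar transporter genes of the MtN3 (SWEET) family, Bradi2g47540 was higher, with 89.3, 86.8 and 66.1 CPM in Bd21, against 15.9, 18.6 and 23.1 CPM in Bd21-3 (log2 difference 2.02 ± 0.20 SE, limma adjusted p = 1.5e-12), while Bradi4g07570, whose S minus LL difference was not called (-1.78, limma adjusted p = 8.1e-05), was lower, with 64.1, 45.5 and 58.6 CPM in Bd21, against 177, 270.0 and 238 CPM in Bd21-3 (log2 difference -2.0 ± 0.23 SE, limma adjusted p = 1.4e-10). CSLD2 (Bradi1g25150), a cellulose synthase-like gene for wall polysaccharides, had 368, 332 and 188 CPM in Bd21, against 118, 88.0 and 50.9 CPM in Bd21-3, and LL means of 48.9 ± 7.96 CPM in Bd21 and 53.2 ± 4.08 CPM in Bd21-3, and its S minus LL difference of 1.93 kept its call in 2 of 12 fits without 1 library. The starch synthase gene SS2 (Bradi3g59440) had 141, 121 and 78.7 CPM in Bd21, against 18.3, 21.1 and 23.0 CPM in Bd21-3 (log2 difference 2.36 ± 0.28 SE, limma adjusted p = 4.7e-10) and LL means of 59.9 ± 21.31 CPM in Bd21 and 79.0 ± 8.37 CPM in Bd21-3, with an S minus LL call kept in 8 of 12 fits. SS3 (Bradi3g15027) had 25.4, 18.1 and 19.2 CPM in Bd21, against 9.31, 4.73 and 5.49 CPM in Bd21-3 and was higher in LL too (27.6 ± 3.15 CPM in Bd21 and 4.41 ± 1.38 CPM in Bd21-3). Its S minus LL difference was not called, and its call in submergence was kept in 1 of 6 fits without 1 library and not by edgeR (adjusted p = 5.9e-06). Both starch synthases belong to a list of 48 starch genes in which no other member was called (4.17% called, against 0.937% of all tested genes) and whose median was 0.08.

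**Figure D3:**
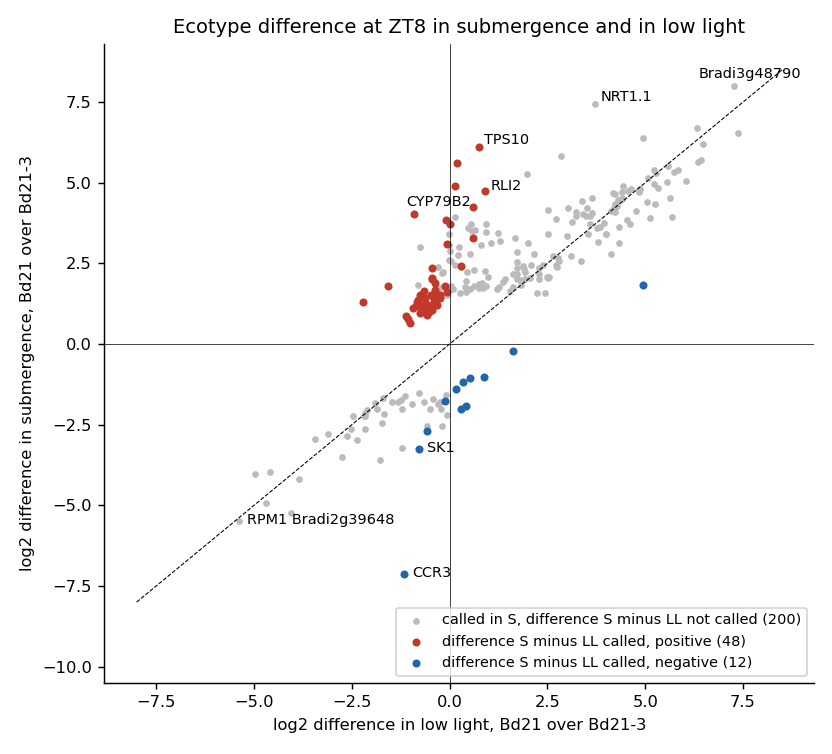
Log2 difference of Bd21 over Bd21-3 at ZT8 in low light (x axis) and in submergence (y axis) for genes called in submergence or in the S minus LL contrast. Red and blue points are the 48 genes with a positive and the 12 with a negative S minus LL difference, and the dashed line marks equal differences. TPS10 lies at 6.12 in submergence and 0.74 in low light, CCR3 at -7.11 and -1.16.

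Other genes of that contrast, among them genes of ascorbate and photorespiration, were higher in Bd21 by mean in submergence and lower by mean in LL, without passing the limit on size in submergence alone. GDP-L-galactose phosphorylase, which commits sugar to ascorbate, is encoded by VTC2 (Bradi4g22700) and VTC5 (Bradi4g40740). VTC2 had 104, 124 and 172 CPM in Bd21, against 59.2, 85.4 and 69.4 CPM in Bd21-3, and LL means of 169.9 ± 25.7 CPM in Bd21 and 374 ± 81.6 CPM in Bd21-3. VTC5 had 149, 169.8 and 212 CPM in Bd21, against 87.1, 126 and 96.4 CPM in Bd21-3, and LL means of 223 ± 56.0 CPM in Bd21 and 456 ± 48.8 CPM in Bd21-3, with a call of the S minus LL difference kept in 8 of 12 fits. PGLP1 (Bradi5g14210), a phosphatase of photorespiration, had 97.7, 97.2 and 88.5 CPM in Bd21, against 31.0, 32.2 and 40.8 CPM in Bd21-3 in submergence and 320.3 ± 29.1 CPM in Bd21 and 492 ± 54.7 CPM in Bd21-3 in LL. The thioredoxin gene TRXF1 (Bradi2g58440), whose protein switches on Calvin cycle enzymes in light, had 126, 118 and 99.2 CPM in Bd21, against 45.1, 56.3 and 44.4 CPM in Bd21-3 in submergence and 254 ± 31.2 CPM in Bd21 and 414 ± 37.7 CPM in Bd21-3 in LL. APR3 (Bradi1g26530), an enzyme of sulfate assimilation, had 92.7, 99.7 and 81.1 CPM in Bd21, against 20.96, 36.8 and 62.8 CPM in Bd21-3, LL means of 26.8 ± 12.1 CPM in Bd21 and 122 ± 34.5 CPM in Bd21-3, and a difference that kept its call in 3 of 12 fits without 1 library. In each of these genes the submerged ecotypes did not overlap, but the contrast that picked them used the same libraries.

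Jasmonate genes had mostly positive differences. Of 54 tested genes of jasmonate synthesis and the JAZ family, 3 were higher and none lower at the full limits (0.742% and 0.195% of all tested genes), with 29 higher and 3 lower at an adjusted p under 0.05 (12.1% and 8.63% of all tested genes). The median was 0.81, between 0.63 and 0.94 when any 1 submerged library was left out, and 0.07 in LL. JAZ1 (Bradi3g10820), a repressor of jasmonate responses, had 514, 828 and 846 CPM in Bd21, against 176, 247 and 240.1 CPM in Bd21-3 (log2 difference 1.70 ± 0.18 SE, limma adjusted p = 1e-11). In LL it was at 94.0 ± 20.7 CPM in Bd21 and 86.8 ± 7.67 CPM in Bd21-3, and its S minus LL difference was not called. The other JAZ1 match, Bradi4g31240, had 56.3, 94.4 and 90.5 CPM in Bd21, against 14.7, 15.0 and 15.8 CPM in Bd21-3 (log2 difference 2.30 ± 0.28 SE, limma adjusted p = 7.5e-10). LOX1 (Bradi1g11680), a lipoxygenase that oxidises fatty acids, had 675, 711 and 431 CPM in Bd21, against 75.6, 87.3 and 133 CPM in Bd21-3 (log2 difference 2.62 ± 0.41 SE, limma adjusted p = 9.6e-07), a call kept in 2 of 6 fits without 1 submerged library, and LL means of 454 ± 248 CPM in Bd21 and 408 ± 52.4 CPM in Bd21-3. The S minus LL difference of LOX1 was not called (2.64, limma adjusted p = 0.0012). Members short of the limits were JAZ4 (Bradi4g29830), with 321, 345 and 333 CPM in Bd21, against 160.5, 201 and 176 CPM in Bd21-3, JAS1 (Bradi5g08650), with 5.67, 6.03 and 19.1 CPM in Bd21, against 0.32, 1.64 and 1.70 CPM in Bd21-3, and CYP94B3 (Bradi4g19187), which inactivates the hormone, with 9.25, 13.1 and 10.3 CPM in Bd21, against 0.21, 0.72 and 1.31 CPM in Bd21-3. COI1 (Bradi2g55210), the jasmonate receptor, had 103, 103 and 117 CPM in Bd21, against 188, 182 and 196 CPM in Bd21-3 (log2 difference -0.80, limma adjusted p = 4.3e-10), below the limit on size.

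Lists of detoxification and redox genes had positive medians of different size. Among 64 glutathione S-transferase genes, whose enzymes couple glutathione to toxic compounds, none was called (1 by edgeR, and 35 higher and 2 lower at an unadjusted limma p under 0.05, which 18.3% and 13.9% of all tested genes reached), but 27 were higher and 1 lower at an adjusted p under 0.05 and the median was 0.82, against 0.01 in LL. ATGSTF13 (Bradi2g13110) had 491, 826 and 1202 CPM in Bd21, against 179, 265 and 333 CPM in Bd21-3. Of 156 cytochrome P450 genes 6 were higher and none lower (3.85% called, against 0.937% of all tested genes), with a median of 0.39. Among the called ones were the CYP51 copies, CYP79B2 and CYP71A22 (Bradi2g10294), which had 25.4, 27.4 and 23.2 CPM in Bd21, against 1.27, 1.64 and 1.18 CPM in Bd21-3 (log2 difference 3.48 ± 0.33 SE, limma adjusted p = 2.1e-13). Of 35 antioxidant and alternative oxidase genes 2 were called, both higher (5.71%, against 0.937% of all tested genes), and the median was 0.22. Of 134 UDP-glycosyltransferase genes none was called by limma or edgeR, with 46 higher and 6 lower at an unadjusted p under 0.05 and a median of 0.32. AOX1A (Bradi3g52505), an alternative oxidase that lets mitochondrial electrons bypass part of the respiratory chain, had 27.3, 16.9 and 15.1 CPM in Bd21, against 1.06, 2.06 and 1.18 CPM in Bd21-3 (log2 difference 3.07 ± 0.38 SE, limma adjusted p = 1.6e-09). In LL the ecotypes were at 70.2 ± 40.6 CPM in Bd21 and 61.0 ± 3.20 CPM in Bd21-3, above the submerged means of both. The S minus LL difference of AOX1A was not called (3.09, limma adjusted p = 4.1e-05). A cluster of alternative oxidase genes on chromosome 5 had wide spread in Bd21, and none of it was called: Bradi5g20557 had 49.2, 123 and 267 CPM in Bd21, against 9.21, 20.4 and 34.5 CPM in Bd21-3 (log2 difference 2.58, limma adjusted p = 0.00027). The other called member, the external NAD(P)H dehydrogenase gene NDB2 (Bradi3g14800), had 34.9, 44.5 and 41.4 CPM in Bd21, against 14.3, 16.3 and 10.1 CPM in Bd21-3 (log2 difference 1.52 ± 0.20 SE, limma adjusted p = 6.7e-09), a call kept in 3 of 6 fits without 1 library. Outside that list, the glutathione peroxidase gene GPX6 (Bradi5g26725) had 52.1, 43.1 and 39.4 CPM in Bd21, against 20.6, 14.9 and 10.4 CPM in Bd21-3, and LL means of 34.3 ± 4.77 CPM in Bd21 and 58.9 ± 4.24 CPM in Bd21-3, with a call in submergence kept in 4 of 6 fits.

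Signalling genes higher in Bd21 included HT1 (Bradi1g35350), a kinase that acts in the stomatal response to carbon dioxide in Arabidopsis, with 21.6, 26.0 and 40.8 CPM in Bd21, against 3.71, 6.78 and 6.01 CPM in Bd21-3 and LL means of 5.70 ± 3.00 CPM in Bd21 and 5.99 ± 0.54 CPM in Bd21-3. It was the one called gene among 25 guard cell markers (4.0%, against 0.937% of all tested genes), whose median was 0.09, and kept its call in 2 of 6 fits without 1 library. The S minus LL difference of HT1 was not called (2.39, limma adjusted p = 0.00045). MAPKKK15 (Bradi2g47510), at the head of a kinase cascade, had 13.2, 34.1 and 75.6 CPM in Bd21, against 1.80, 1.54 and 3.40 CPM in Bd21-3 (log2 difference 3.42 ± 0.42 SE, limma adjusted p = 1.2e-09), with Bd21 replicate 3 the highest. PIRIN (Bradi3g21730), a cupin protein, had 70.6, 70.8 and 43.5 CPM in Bd21, against 7.73, 8.73 and 7.84 CPM in Bd21-3 (log2 difference 2.75 ± 0.37 SE, limma adjusted p = 1.7e-08). GLK1 (Bradi1g43710), an activator of chlorophyll and antenna genes, had 36.6, 22.8 and 18.1 CPM in Bd21, against 7.09, 6.06 and 7.45 CPM in Bd21-3 (log2 difference 1.72 ± 0.26 SE, limma adjusted p = 2.3e-07), and kept its call in 4 of 6 fits. A neutral invertase gene, Bradi2g12427, whose enzyme splits sucrose, had 79.7, 125 and 125 CPM in Bd21, against 24.8, 17.1 and 23.1 CPM in Bd21-3 (log2 difference 2.28 ± 0.15 SE, limma adjusted p = 5.9e-20). It was the one called member among 29 sucrose genes (3.45%, against 0.937% of all tested genes), whose median was 0.04.

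Fewer genes were lower in Bd21, and some were abundant. CCR3 (Bradi4g10500), a receptor-like kinase related to CRINKLY4, had 0.42, 0.13 and 0.91 CPM in Bd21, against 128, 229.9 and 273 CPM in Bd21-3 (log2 difference -7.11 ± 0.32 SE, limma adjusted p = 2.5e-28). In LL it was low in both ecotypes, 0.93 ± 0.46 CPM in Bd21 and 3.39 ± 1.46 CPM in Bd21-3, and the S minus LL difference was -5.96 (± 0.45 SE, limma adjusted p = 4.7e-16). SK1 (Bradi5g23460), described as shikimate kinase, an enzyme on the route to aromatic amino acids, had 51.3, 44.5 and 56.5 CPM in Bd21, against 588, 517 and 393 CPM in Bd21-3 (log2 difference -3.26 ± 0.14 SE, limma adjusted p = 2.1e-29). The next gene, Bradi5g23450, described as a protein kinase, had 80.9, 67.0 and 86.1 CPM in Bd21, against 624, 498 and 431 CPM in Bd21-3 (log2 difference -2.71 ± 0.14 SE, limma adjusted p = 3e-25). LL values of this pair were 17.8 ± 0.31 CPM in Bd21 and 31.5 ± 3.29 CPM in Bd21-3 for SK1 and 44.5 ± 4.53 CPM in Bd21 and 67.3 ± 8.49 CPM in Bd21-3 for Bradi5g23450, and the S minus LL difference was -2.47 (± 0.19 SE, limma adjusted p = 2e-15) for SK1. Both genes kept that call in all 12 fits without 1 library. SK1 was the single called gene among 23 shikimate genes (4.35%, against 0.937% of all tested genes), whose median was 0.36, in the opposite direction.

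MT3 (Bradi2g06220), a metallothionein, a small metal-binding protein, had 136, 163 and 187 CPM in Bd21, against 799.6, 1118 and 952 CPM in Bd21-3 (log2 difference -2.55 ± 0.30 SE, limma adjusted p = 1.8e-10). Its LL means were 737 ± 119 CPM in Bd21 and 1093 ± 88.0 CPM in Bd21-3, and its S minus LL difference was not called (-1.98, limma adjusted p = 0.00069). The other members of its list of 6, with a median of 0.00, were not called, among them Bradi2g62315 with 248, 432 and 361 CPM in Bd21, against 497, 919.7 and 1132 CPM in Bd21-3. Single defence and signalling genes were lower as well, but the WRKY and receptor kinase lists were not. The 72 WRKY genes had a median of 0.35, with 8 higher and 4 lower at an adjusted p under 0.05 (12.1% and 8.63% of all tested genes). At the full limits 1 WRKY gene was called, lower in Bd21 (1.39%, against 0.937% of all tested genes). The 103 cysteine-rich and wall-associated receptor kinase genes had a median of 0.09, with 1 called in each direction (1.94%, against 0.937% of all tested genes). WRKY33 (Bradi4g09886), a transcription factor of immune responses, had 13.7, 11.0 and 19.8 CPM in Bd21, against 126, 119.7 and 109 CPM in Bd21-3 (log2 difference -2.95 ± 0.32 SE, limma adjusted p = 3e-11), and LL means of 8.47 ± 1.18 CPM in Bd21 and 102 ± 14.1 CPM in Bd21-3. CRK19 (Bradi4g10590), a cysteine-rich receptor-like kinase, had 5.88, 6.82 and 11.3 CPM in Bd21, against 41.3, 46.3 and 52.0 CPM in Bd21-3. PEPR1 (Bradi3g37210), a receptor for peptides released on damage, had 8.83, 9.05 and 8.11 CPM in Bd21, against 38.6, 34.5 and 29.8 CPM in Bd21-3, and in LL it was at 4.55 ± 1.62 CPM in Bd21 and 5.67 ± 0.87 CPM in Bd21-3. Its S minus LL difference was not called (-1.57, limma adjusted p = 0.0019). An LRR kinase gene, Bradi4g24457, had 3.99, 4.85 and 28.4 CPM in Bd21, against 154, 109.6 and 90.4 CPM in Bd21-3, where Bd21 replicate 3, the library with Bd21-3 marks, was several times above the other Bd21 libraries. The same library was the highest for SAUR genes of the auxin response: Bradi4g36990 had 0.21, 0.66 and 4.45 CPM in Bd21, against 21.7, 20.3 and 17.2 CPM in Bd21-3 and Bradi4g37020 had 0.84, 0.79 and 5.71 CPM in Bd21, against 23.2, 20.6 and 19.2 CPM in Bd21-3. Bradi4g37020 kept its call in 4 of 6 fits without 1 library and not by edgeR (adjusted p = 2.9e-05).

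Transport and growth genes in the lower group were CLC-F (Bradi3g56670), of the chloride channel family, with 8.83, 8.39 and 16.4 CPM in Bd21, against 78.2, 52.3 and 34.6 CPM in Bd21-3, the metal-nicotianamine transporter gene YSL3 (Bradi5g17210), with 3.99, 4.85 and 2.63 CPM in Bd21, against 18.4, 16.4 and 11.8 CPM in Bd21-3, and DAR2 (Bradi1g66980), related to a growth regulator, with 7.36, 8.00 and 6.62 CPM in Bd21, against 30.8, 26.8 and 20.8 CPM in Bd21-3. The call of DAR2 was kept in 3 of 6 fits without 1 library and that of YSL3 in 5. Bradi1g68957, with no description, had 138, 163 and 196 CPM in Bd21, against 612, 558 and 605 CPM in Bd21-3 (log2 difference -1.84 ± 0.16 SE, limma adjusted p = 7.7e-15). These genes also had lower Bd21 means in LL.

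The most abundant gene in either called group was PK1 (Bradi4g42810), a pyruvate kinase, which forms pyruvate at the last step of glycolysis. It had 1246, 1596 and 2008 CPM in Bd21, against 4632, 5918 and 5661 CPM in Bd21-3 (log2 difference -1.76 ± 0.16 SE, limma adjusted p = 1.9e-14). In LL both ecotypes were near each other, 212 ± 17.8 CPM in Bd21 and 229.7 ± 13.7 CPM in Bd21-3, and the S minus LL difference was -1.64 (± 0.22 SE, limma adjusted p = 2.5e-07). It was the one called gene of 48 in glycolysis (2.08%, against 0.937% of all tested genes), where the median was -0.13. At an adjusted p under 0.05, 8 glycolysis genes were higher and 13 lower, beside 12.1% and 8.63% of all tested genes. A phosphofructokinase gene, Bradi3g22340, had 65.4, 73.4 and 105 CPM in Bd21, against 176, 209.9 and 219.7 CPM in Bd21-3, a second pyruvate kinase gene, Bradi5g26140, had 354, 438 and 481 CPM in Bd21, against 704, 877 and 995 CPM in Bd21-3, and the enolase gene ENO2 (Bradi3g22550) had 932, 928 and 872 CPM in Bd21, against 1353, 1426 and 1453 CPM in Bd21-3. Those 3 genes were below the limit on size, with log2 differences of -1.32, -1.01 and -0.63.

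The genes best known for low oxygen were not called, beside 0.937% of all tested genes, a share at which lists this short would hold few calls or none. Of 54 matches to the hypoxia core set of Arabidopsis none passed by limma or edgeR, with a median of -0.08 in S and 0.11 in LL. At an unadjusted limma p under 0.05, 3 were higher and 7 lower, beside 18.3% and 13.9% of all tested genes. Their summed level was 20698 to 29684 CPM in Bd21, against 27543 to 39912 CPM in Bd21-3. Of 10 fermentation genes none passed by either tool (2 higher and 0 lower at an unadjusted p under 0.05), with a median of -0.25. The ADH genes Bradi4g22630 (values above) and Bradi4g22620, with 1864, 2614 and 2686 CPM in Bd21, against 2786, 3444 and 4021 CPM in Bd21-3, had log2 differences of -0.69 and -0.52. HB1 (Bradi1g69320), a phytoglobin that removes nitric oxide, had 251, 567 and 664 CPM in Bd21, against 1005, 1343 and 1574 CPM in Bd21-3 (log2 difference -1.49, limma adjusted p = 0.035). Sucrose synthase gene SUS (Bradi1g20890), which opens sucrose for glycolysis, had 211, 229 and 272 CPM in Bd21, against 499, 493 and 483 CPM in Bd21-3 (log2 difference -1.06, limma adjusted p = 0.068). ALAAT2 (Bradi3g23160), an alanine aminotransferase, had 3628, 5281 and 5537 CPM in Bd21, against 7174, 6473 and 6099.5 CPM in Bd21-3. For HB1 and SUS every Bd21 library was below every Bd21-3 library, and neither gene reached the limits. The share of all tested genes without overlap was not counted, so the lack of overlap adds no support.

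Genes that the study names for mitochondrial or wound responses were also short of the limits at ZT8, as were MAPK3 and ZEP. ZT8 is not the time the study stresses for IF1 or MICU. The study describes IF1 as higher in Bd21-3 through the day with accumulation at night, and MICU as peaking at dawn in Bd21-3. It gives MAPK3 as raised alike in both ecotypes, and ZEP as a gene whose peak moved to the night. IF1 (Bradi3g44950), an inhibitor of the mitochondrial ATPase, had 24.2, 41.4 and 44.3 CPM in Bd21, against 43.0, 54.2 and 61.9 CPM in Bd21-3, with overlapping libraries, and LL means of 25.8 ± 6.96 CPM in Bd21 and 5.803 ± 1.402 CPM in Bd21-3. The wound-responsive gene Bradi5g23150 had 194, 260.3 and 282 CPM in Bd21, against 216, 340.4 and 368 CPM in Bd21-3, and the 3 others of its kind, Bradi5g23158, Bradi5g23166 and Bradi5g23182, had log2 differences of 0.23, -0.23 and -0.42. MAPK3 (Bradi1g65810), a kinase of stress signalling, had 95.2, 209.7 and 359 CPM in Bd21, against 58.8, 162 and 209.5 CPM in Bd21-3. ZEP (Bradi5g11750), which makes precursors of abscisic acid, had 135, 125 and 114 CPM in Bd21, against 59.2, 56.1 and 40.8 CPM in Bd21-3 (log2 difference 1.26, limma adjusted p = 1.3e-11). The calcium uptake gene MICU (Bradi5g14860) had 128, 137 and 156 CPM in Bd21, against 334, 255 and 275 CPM in Bd21-3 (log2 difference -1.03). In submergence at ZT0 it was called lower in Bd21 (log2 difference -1.66, limma adjusted p = 9e-13). ZEP and MICU did not overlap between the ecotypes at ZT8, but the share of all tested genes without overlap was not counted, so this adds no support.

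Lists of photosynthetic genes had positive medians without single calls. All 50 tested genes of the photosystems, antenna and electron transport had a positive log2 difference, against 55.4% of all tested genes, with a median of 0.74. None was called by limma or edgeR, 12 were higher at an adjusted p under 0.05 (12.1% of all tested genes were), and 25 were higher and 0 lower at an unadjusted p under 0.05 (18.3% and 13.9% of all tested genes). The summed level was 14710, 12669 and 13047 CPM in the Bd21 libraries, against 5267, 9347 and 11518 CPM in the Bd21-3 libraries, so the libraries of the ecotypes did not overlap, and replicate 1 of Bd21-3 was far below the other Bd21-3 libraries. The median was 0.42 to 0.94 when any 1 submerged library was left out. In LL the median was -0.30, and 0.13 without Bd21 replicate 1. The 23 Calvin cycle genes had a median of 0.62 in S and -0.29 in LL (-0.04 without that library), and none was called by either tool, with 15 higher and 0 lower at an unadjusted p under 0.05. NPQ4 (Bradi2g56260), which dissipates excess light, had 214, 121 and 129 CPM in Bd21, against 16.8, 38.9 and 57.4 CPM in Bd21-3 (log2 difference 2.12, limma adjusted p = 6.9e-05). The antenna gene LHCA3 (Bradi3g07190) had 281, 174 and 162 CPM in Bd21, against 61.7, 89.1 and 92.1 CPM in Bd21-3. RCA (Bradi4g09125), the activase of Rubisco, had 3187, 2784 and 2709 CPM in Bd21, against 1231, 1555 and 1532 CPM in Bd21-3 (log2 difference 1.01, limma adjusted p = 6e-06). Both ecotypes were below their LL means, which for RCA were 9532 ± 2382 CPM in Bd21 and 12702 ± 1408 CPM in Bd21-3.

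**Figure D4:**
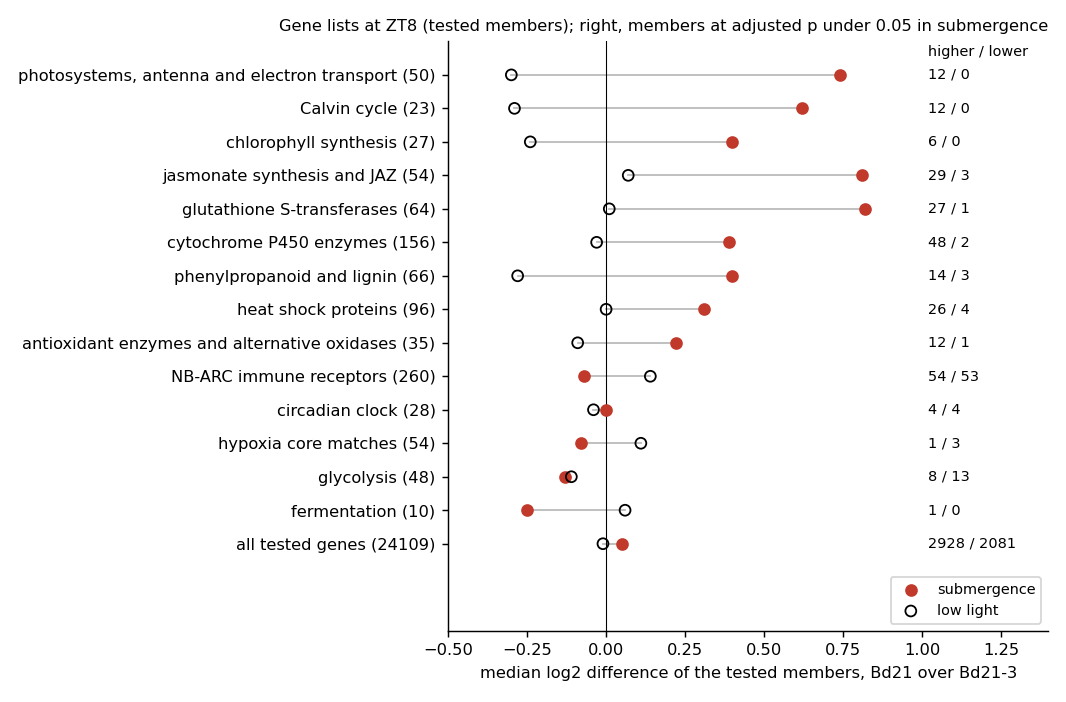
Median log2 difference of Bd21 over Bd21-3 at ZT8 for gene lists in submergence (red) and in low light (open circles), with the number of tested members in brackets and, at the right, the members higher and lower at an adjusted p under 0.05 in submergence. Photosystem genes lie at 0.74 in submergence and -0.30 in low light, and hypoxia core matches at -0.08 and 0.11.

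None of the 28 clock genes was called by limma, beside 0.937% of all tested genes (1 lower by edgeR, and 4 higher and 4 lower at an unadjusted p under 0.05), with a median of 0.00. PRR3 (Bradi1g16490), a pseudo-response regulator of the clock, had 17.9, 12.5 and 14.5 CPM in Bd21, against 48.9, 44.8 and 31.7 CPM in Bd21-3 (log2 difference -1.42, limma adjusted p = 4e-08), close to the limit on size, and LL means of 50.2 ± 1.55 CPM in Bd21 and 48.6 ± 1.85 CPM in Bd21-3. PRR3 was the clock gene that edgeR called lower (log2 difference -1.51, edgeR adjusted p = 8.4e-08). In submergence at ZT16 limma called it lower as well (log2 difference -1.8, limma adjusted p = 2.3e-11). The study describes this gene as alone among its rhythm genes in being raised more in the tolerant ecotype, at midday and dusk. APRR5 (Bradi4g24967), of the same family, had 81.5, 130.5 and 131 CPM in Bd21, against 264, 238 and 258 CPM in Bd21-3, while in LL Bd21 was the higher one (75.0 ± 7.21 CPM in Bd21 and 58.6 ± 3.43 CPM in Bd21-3). Its S minus LL difference was called, at -1.52 (± 0.22 SE, limma adjusted p = 4.9e-07), in 8 of 12 fits without 1 library too. The light sensor gene PLP (Bradi2g05520), with a PAS/LOV domain, had 336, 416 and 516 CPM in Bd21, against 846, 864 and 840.5 CPM in Bd21-3, LL means of 135 ± 33.8 CPM in Bd21 and 71.7 ± 6.35 CPM in Bd21-3 and a called difference of -1.90 (± 0.29 SE, limma adjusted p = 3.2e-06), kept in 2 of 12 fits without 1 library. Markers of other tissues and of dividing cells were checked as well. Xylem and phloem (8 genes), root (6), shoot meristem and flower (14) and cell cycle markers (20) had no call by limma or edgeR, with 0, 0, 3 and 3 members higher and 0, 0, 1 and 0 lower at an unadjusted p under 0.05, and medians of 0.12, 0.32, 0.08 and 0.33. Of 96 heat shock protein genes none was called by either tool, with a median of 0.31 and 35 higher and 7 lower at an unadjusted p under 0.05, beside 18.3% and 13.9% of all tested genes.

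Across the day in submergence, the number of genes higher and lower in Bd21 was 144 and 55 at ZT0 (0.597% and 0.228%), 179 and 47 at ZT8, 193 and 101 at ZT16 (0.801% and 0.419%), 154 and 55 at ZT20 (0.639% and 0.228%) and 153 and 63 at ZT24 (0.635% and 0.261%). Of the 179 higher genes at ZT8, 75 were called at all 5 times and 43 at ZT8 alone, and of the 47 lower genes 19 and 6. A call at ZT8 alone does not show that the difference changed with time. The test of that, the ecotype difference at ZT8 minus the mean of those at the other times, called 13 genes as positive (0.0539%) and none as negative (0.0%) by limma or edgeR, with 1411 negative at an unadjusted p under 0.05. The positive count was 2 without Bd21 replicate 2 and 7 without Bd21-3 replicate 2. TPS10 and CYP79B2 kept the call in all 6 such fits. TPS10 had 1.399 ± 1.00 CPM in Bd21 and 0.33 ± 0.46 CPM in Bd21-3 at ZT0, 109.8 ± 58.5 CPM in Bd21 and 0.54 ± 0.73 CPM in Bd21-3 at ZT8, 16.0 ± 4.82 CPM in Bd21 and 1.55 ± 0.75 CPM in Bd21-3 at ZT16 and 0.86 ± 0.13 CPM in Bd21 and 1.32 ± 0.41 CPM in Bd21-3 at ZT24 (SD, n = 3 each). CYP79B2 had 0.043 ± 0.074 CPM in Bd21 and 0.23 ± 0.29 CPM in Bd21-3 at ZT0, 38.0 ± 6.20 CPM in Bd21 and 1.36 ± 0.20 CPM in Bd21-3 at ZT8 and 11.2 ± 2.81 CPM in Bd21 and 1.83 ± 0.64 CPM in Bd21-3 at ZT16. JAZ1 Bradi3g10820 was also called, at 231 ± 22.5 CPM in Bd21 and 193 ± 7.49 CPM in Bd21-3 at ZT0, 729 ± 187 CPM in Bd21 and 221 ± 39.2 CPM in Bd21-3 at ZT8, 445 ± 178 CPM in Bd21 and 308 ± 21.8 CPM in Bd21-3 at ZT16 and 193 ± 37.4 CPM in Bd21 and 239 ± 46.4 CPM in Bd21-3 at ZT24. For TPS10, CYP79B2 and JAZ1 Bradi3g10820 the ecotypes were furthest apart at ZT8 by mean, which adds nothing to calls made on that same difference. PAL1 (Bradi3g48840), the entry enzyme of phenylpropanoid synthesis, was called in this contrast at 1.91 ± 0.26 (SE) although its ZT8 libraries overlapped, with 5.88, 5.77 and 3.20 CPM in Bd21, against 4.13, 2.67 and 2.87 CPM in Bd21-3. Its difference lay at the later times, where Bd21 was lower by mean, with 3.92 ± 2.73 CPM in Bd21 and 37.2 ± 7.25 CPM in Bd21-3 at ZT16, 3.38 ± 1.05 CPM in Bd21 and 12.4 ± 1.30 CPM in Bd21-3 at ZT20 and 2.73 ± 0.75 CPM in Bd21 and 9.41 ± 0.95 CPM in Bd21-3 at ZT24, and the call was kept in 2 of 6 fits. SK1 had 72.5 ± 6.39 CPM in Bd21 and 166 ± 11.4 CPM in Bd21-3 at ZT0, 50.8 ± 6.05 CPM in Bd21 and 499 ± 98.6 CPM in Bd21-3 at ZT8 and 91.6 ± 12.6 CPM in Bd21 and 811 ± 92.9 CPM in Bd21-3 at ZT16, with Bd21 below Bd21-3 at each, and was called at 4 of the 5 times. PK1 passed all limits at ZT8 only, with 1617 ± 382 CPM in Bd21 and 5403 ± 680.2 CPM in Bd21-3 at ZT8 and 678 ± 218 CPM in Bd21 and 1736 ± 307 CPM in Bd21-3 at ZT16. At ZT0, ZT16, ZT20 and ZT24 it was lower in Bd21 too and missed only the limit on size (log2 differences -1.27, -1.39, -1.02 and -1.17). Its difference at ZT8 minus the mean of the other times was not called (-0.55 ± 0.18 SE, limma adjusted p = 0.085). The study places PK1 among genes higher in Bd21-3 through the day.

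**Figure D5:**
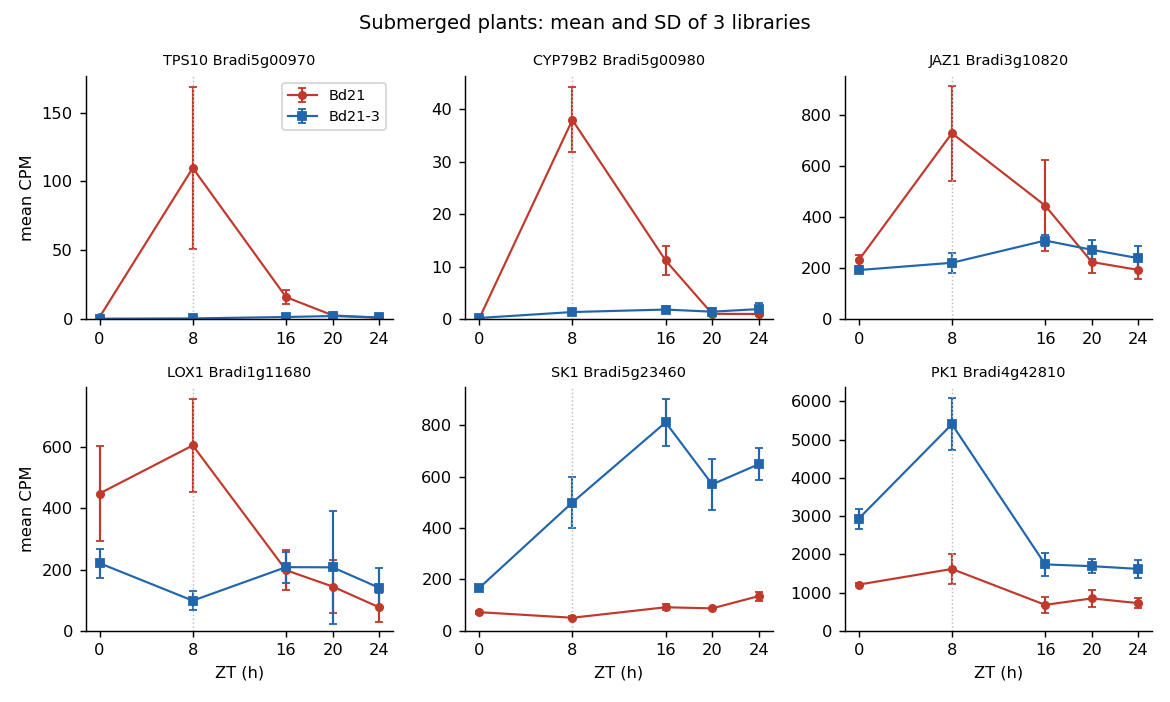
Mean CPM and SD of 3 libraries in submerged Bd21 (red circles) and Bd21-3 (blue squares) for 6 genes over the day (x axis, ZT in hours), with a dotted line at ZT8. TPS10, CYP79B2 and JAZ1, all called on the difference of ZT8 from the other times, have their highest Bd21 mean at ZT8, above that of Bd21-3. SK1 is lower in Bd21 at every time.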

How the data were processed

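RNA-seq was made from shoots of submerged, low-light and normally grown plants. According to the study's methods, HISAT2 2.1.0 placed the reads of both ecotypes on the Bd21 genome, alignments went through SAMtools 1.12 to HTSeq for counting, and edgeR scaled the counts. The signal values as deposited are CPM scaled by the authors to an effective library size, and whole reads were recovered from them: 1 read was worth 0.0608 to 0.261 CPM, and 100% of the values came out whole within 0.001 read, for 3896851 to 16044727 reads per library. Both ecotypes being read against the Bd21 genome, a Bd21-3 gene that differs in sequence can lose reads.

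log2(CPM + 1) was fitted with limma 3.58.1 (trend, R 4.3.3) over all 89 libraries in 30 groups, 1 term per group, for the 24109 genes at 1 CPM or more in 3 or more libraries, with Benjamini-Hochberg adjustment. Log2 differences are on that scale, which understates changes of low genes. The limits for a call were a log2 difference of 1.5 in size, adjusted p below 5e-06 and 15 CPM as the mean of a group compared. edgeR 4.0.16 on the recovered reads was an alternative, as were other pseudocounts, filters, scalings and limits and leaving out each library. Figures were drawn with matplotlib 3.10.9. Columns of the authors' own log fold changes and FDR for S against LL within each ecotype, and of their group averages, were not used. Symbols and roles follow the Arabidopsis match in the annotation, held by 19689 of the 24467 genes.

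The members and gene lists were chosen with earlier results of these data known. Named genes were the 10 called genes with a symbol and the largest difference in each direction, the 5 most abundant called genes in each direction, up to 3 called members of each list, genes the study names, and the 5 leading genes of each contrast. A further 56 genes were chosen after their values were seen, as neighbours, list members or for their role.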

Additional observations from a re-analysis of the deposited data

Results flagged for a closer look

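These genes had an ecotype difference that differed between treatments or times, by limma on the difference itself. For submergence minus low light at ZT8, the log2 difference of Bd21 over Bd21-3 was larger in submergence by 5.38 for TPS10, 4.95 for CYP79B2, 3.94 for TPS14, 3.84 for RLI2 and 3.66 for UCC1. It was negative for CCR3 (-5.96), SK1 (-2.47), the light sensor gene PLP (-1.90) and APRR5 (-1.52). When 1 of the 12 libraries of the contrast was left out at a time, the calls of TPS10, CYP79B2, CCR3 and SK1 were kept in all 12 fits, that of UCC1 in 11, APRR5 in 8, PLP in 2, and TPS14 and RLI2 in 1 each.

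For ZT8 minus the mean of the other times in submergence, the values were 5.27 for TPS10, 3.76 for CYP79B2, 3.69 for TPS14, 2.29 for JAZ1 Bradi4g31240 and 1.91 for PAL1. The calls of TPS10 and CYP79B2 were kept in all 6 fits without 1 ZT8 library, that of TPS14 in 4, PAL1 in 2 and JAZ1 Bradi4g31240 in 1. The groups of 3 libraries are too small for a test of single libraries that stand apart.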

How the results depend on the processing

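The counts of 179 higher and 47 lower genes rest on a spread shared over the 89 libraries. With only the groups compared in the fit, 0 and 0 genes passed in submergence by limma (3536 and 2673 at an unadjusted p under 0.05), 1 and 0 in the S minus LL contrast (2751 and 2163), and 4 and 0 in the ZT8 contrast (1506 and 955). edgeR was not run on those groups alone. With an adjusted p limit of 0.05, 330 genes were higher in submergence, the S minus LL contrast had 268 positive and 49 negative genes, and the ZT8 contrast 67 and 2. With a log2 limit of 1, 106 genes were lower in submergence and the S minus LL contrast had 76 and 19. A lower limit of -2 left 32 lower genes in submergence and 6 negative ones in the S minus LL contrast. Leaving out 1 library at a time gave 154 to 175 higher and 41 to 57 lower genes, 28 to 47 positive and 7 to 13 negative genes in the S minus LL contrast, and 2 to 13 positive and 0 to 1 negative genes in the ZT8 contrast. edgeR called 180 higher and 48 lower genes, 174 and 44 of them shared. Genes without a read in the other ecotype numbered 12 for Bd21 without Bd21-3 replicate 3 in NG, 21 over S and LL alone, and 45 for Bd21 and 4 for Bd21-3 over S alone. Of 119 named genes, 64 of them called, none changed direction, 15 calls were lost and 5 gained without some library.

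The replicate numbers paired the submerged libraries in part. Same-numbered libraries of the ecotypes correlated in their deviations from the group means at 0.41, -0.07 and 0.45 over 10440 genes. Replicates 1 and 3 each correlated best with their own number, and crossed they were at -0.46 and -0.41, but replicate 2 did not. The main fit did not model this pairing. With a replicate block, 179 genes were higher (178 shared) and 47 lower (47 shared), and no call of a named gene changed. That block was 1 effect per replicate number over all 89 libraries, so it cannot take up an effect particular to submergence at ZT8. Depth limits the low genes: the shallowest submerged library held 4453888 reads, so 3 reads there are 0.631 CPM.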
